A study of Homo sapiens with 9 samples.

Results

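Notch genes were followed in Z138, an established line of mantle cell lymphoma (a cancer of B cells), across 3 states of the transcription factor SOX11. The genes were picked by symbol: the ligand JAG1, the receptors NOTCH1, NOTCH2 and NOTCH4, the DNA-binding factor RBPJ, the regulators DTX1 and NRARP, and the repressors HES1, HES4 and HES6. Of these 10 genes, 9 had a row among the 16586 genes of the deposited table, and HES4 was not analysed here. RNA sequencing gave 3 libraries for each of 3 groups: SOX11 rescue (genotype SOX11KO+SOX11Rescue), SOX11 knockout (genotype SOX11KO) and wild type (WT). All 9 libraries came from Z138 cells in the same culture medium, and each replicate number is also a batch in the labels, so that every batch holds 1 library of each group. The labels do not say whether the knockout and rescue cells are single clones, how SOX11 was put back, or whether replicates were separate cultures. The p-values therefore measure the spread between these libraries, and a difference between clones cannot be told apart from one due to SOX11.

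Notch signalling passes from cell to cell. A ligand such as Jagged-1 on one cell pulls on a Notch receptor of its neighbour, the receptor is cut by ADAM proteases and by gamma-secretase, and its freed intracellular part enters the nucleus, joins RBPJ and mastermind-like coactivators and switches on target genes. HES1, HES4, NRARP and DTX1 are classic targets, and NRARP and DTX1 also act back on the pathway. In B cells NOTCH2 is needed for marginal zone B cells, and activating mutations of NOTCH1 recur in mantle cell lymphoma.

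Values below are normalized counts recovered from the deposited log2 values, given as mean ± SD with n = 3 libraries per group unless single libraries are listed. Estimated depth was 30800000 to 40800000 reads per library, so that 1 read was worth 0.856 to 1.13 normalized counts. SOX11 itself stood at 13127 ± 627 in the rescue, 1033 ± 262 in the knockout and 3549 ± 474 in wild type, with no overlap between groups (each pair: two-sided exact permutation p = 0.1, which is the minimum with 3 libraries a side). The knockout label thus comes with a remaining SOX11 transcript, and the rescue lies above wild type. The 5 B cell markers MS4A1, CD79A, CD79B, PAX5 and CD22 summed to 1283 to 1475 CPM in rescue, 1202 to 1331 CPM in knockout and 1229 to 1438 CPM in wild-type libraries. Of other cell types, the 6 T cell markers with a row summed to 14.2 to 16.7 CPM in rescue, 15.8 to 18.6 CPM in knockout and at most 14.3 CPM in wild-type libraries, most of it CD3G. The 4 myeloid markers with a row summed to 1.28 to 1.62 CPM in rescue, at most 1.36 CPM in knockout and 0.437 to 0.649 CPM in wild-type libraries. The 4 stromal markers with a row summed to 20.9 to 27.4 CPM in rescue, 29 to 36.3 CPM in knockout and 26.7 to 37.2 CPM in wild-type libraries. PECAM1, the endothelial marker with a row, had 4.31 to 4.73 CPM in rescue, 10.9 to 15.3 CPM in knockout and 6.05 to 8.33 CPM in wild-type libraries. No marker with a row was at 0 in all libraries, and the part of other cell types in the Notch results was not tested.

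The levels of the genes were first set in order, per kilobase of the principal transcript of each gene. In wild type HES6 (2465 ± 343 normalized counts per kb) and DTX1 (2144 ± 296) stood highest, and their ranges overlapped. NOTCH2 followed with 990.1 ± 45.5 per kb, then RBPJ with 535 ± 48.5, and these neighbours did not overlap. NOTCH1 (400.2 ± 108) overlapped with RBPJ, while NRARP (189.9 ± 57.5), JAG1 (78.1 ± 6.86), HES1 (13.8 ± 5.94) and NOTCH4 (0.739 ± 0.121) each lay below the gene before them without overlap. NOTCH2 was therefore the most abundant receptor per kb in wild type. The order differed in 1 place between the groups: DTX1 lay below NOTCH2 in the knockout (925 ± 64.5 against 1279 ± 73.1 per kb), and above it in the rescue (2816 ± 148 against 943.9 ± 42.8) and in wild type. Lengths are those of 1 annotated transcript per gene, so these levels depend on that choice.

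**Figure D1:**
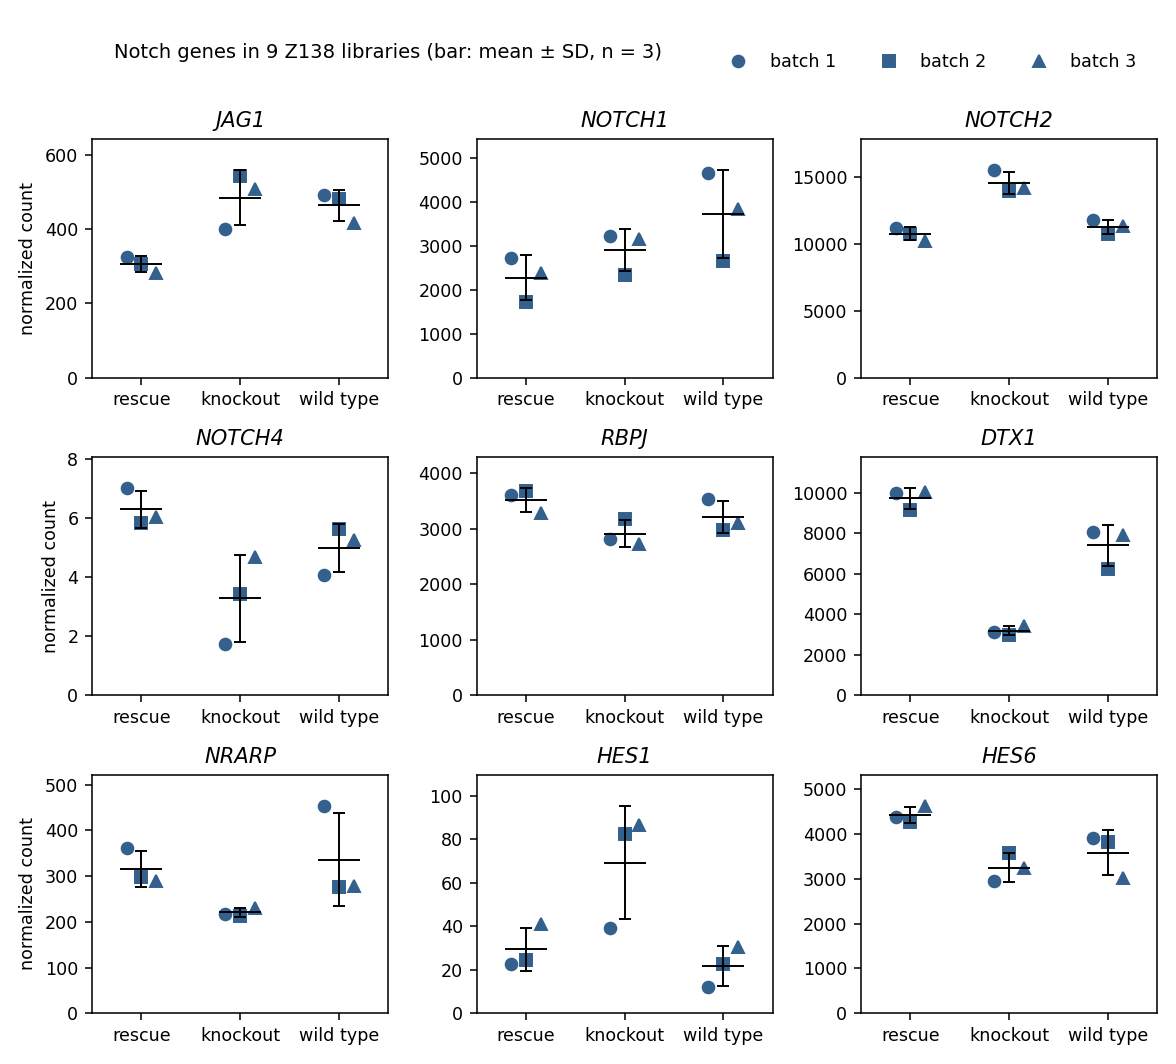
Normalized counts (vertical axes, linear and starting at 0) of the 9 Notch genes in rescue, knockout and wild-type libraries, with 1 point per library, a symbol per batch, and bars for mean ± SD. DTX1 stays between 2997 and 3437 in the knockout and at 6226 or more in the other groups, while NOTCH2 is highest in the knockout.

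Among the ligands, JAG1 (ENSG00000101384.12, chromosome 20, 10637684 to 10673999, minus strand), which encodes Jagged-1, was lower in the rescue than in both other groups. It had 326, 307 and 283 normalized counts in the rescue libraries of batches 1 to 3, 401, 544 and 508 in the knockout and 492, 483 and 417 in wild type. The rescue did not overlap either group, while knockout and wild type overlapped. The rescue was 1.59-fold lower than the knockout (log2 difference -0.29, SE 0.0641, limma adjusted p = 0.00726) and 1.52-fold lower than wild type (log2 difference -0.27, limma adjusted p = 0.0425). The knockout and wild type were not shown to differ (limma adjusted p = 0.828), and their order turned round in batch 1. The difference from wild type was the less stable: its adjusted p was 0.126, 0.11 and 0.0526 without wild-type replicate 1, 2 or 3, 0.0809, 0.129 and 0.176 without rescue replicate 1, 2 or 3, and 0.064 without knockout replicate 3. It was also 0.181, 0.162 and 0.281 without batch 1, 2 or 3. Within batches 1, 2 and 3 the rescue stood at 0.664, 0.637 and 0.678 times the wild-type count. The difference from the knockout was lost without batch 3 (limma adjusted p = 0.124). An antisense gene shares 79 of the 9298 annotated exon bases of JAG1, and the sources do not assign stranded kits to libraries.

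NOTCH2 (ENSG00000134250.20, chromosome 1, 119911553 to 120069626, minus strand) was higher in the knockout than in both other groups. Its normalized counts were 11220, 10783 and 10246 in the rescue, 15518, 13999 and 14170 in the knockout, and 11761, 10731 and 11338 in wild type. Each knockout library was above all 6 others, and rescue and wild type overlapped. NOTCH2 rose 1.29-fold in the knockout against wild type (log2 difference 0.35, SE 0.057, limma adjusted p = 0.00201) and was 1.35-fold lower in the rescue than in the knockout (log2 difference -0.41, limma adjusted p = 0.000416). Both calls were kept under each of 20 other settings of the fit. The rescue and wild type were not shown to differ (log2 difference -0.06, SE 0.057, limma adjusted p = 0.637).

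NOTCH2 has partial copies in the genome, the NOTCH2NL genes, and 6.34% of the 31-base stretches of its principal transcript also occur in transcripts of other genes. The 3 copies with a row, NOTCH2NLA, NOTCH2NLB and NOTCH2NLC, together had 1377 ± 82 normalized counts in the rescue, 1889 ± 98.5 in the knockout and 1430 ± 86.2 in wild type. That sum was 12.8%, 13% and 12.7% of the NOTCH2 count in rescue, knockout and wild type. Counted together with its copies, NOTCH2 was still higher in the knockout than in wild type (log2 difference 0.35, limma adjusted p = 0.00148) and lower in the rescue than in the knockout (log2 difference -0.42, limma adjusted p = 0.000312), an alternative chosen after seeing the data.

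NOTCH1 (ENSG00000148400.12, chromosome 9, 136494433 to 136545786, minus strand) showed a different order, with the rescue lowest and wild type highest in every batch. It had 2729, 1729 and 2384 normalized counts in the rescue of batches 1, 2 and 3, 3230, 2348 and 3151 in the knockout and 4659, 2661 and 3854 in wild type. The batch 2 library was the lowest of each group, so the groups overlapped when batches were pooled. Without a batch term no comparison passed: the knockout was 1.28-fold lower than wild type (limma adjusted p = 0.337), the rescue 1.28-fold lower than the knockout (limma adjusted p = 0.265) and the rescue 1.63-fold lower than wild type (log2 difference -0.56, SE 0.169, limma adjusted p = 0.105). With the replicate block, which compares libraries of the same batch, all 3 passed, at limma adjusted p = 0.00566, 0.00324 and 0.000206 in that order. Within batches 1, 2 and 3 the rescue stood at 0.586, 0.65 and 0.619 times the wild-type count, and the knockout at 0.693, 0.882 and 0.818 times. The difference between rescue and wild type also passed without wild-type replicate 2 (limma adjusted p = 0.0238) and without batch 2 (limma adjusted p = 0.00967), and that between knockout and wild type without batch 2 (limma adjusted p = 0.0325).

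**Figure D2:**
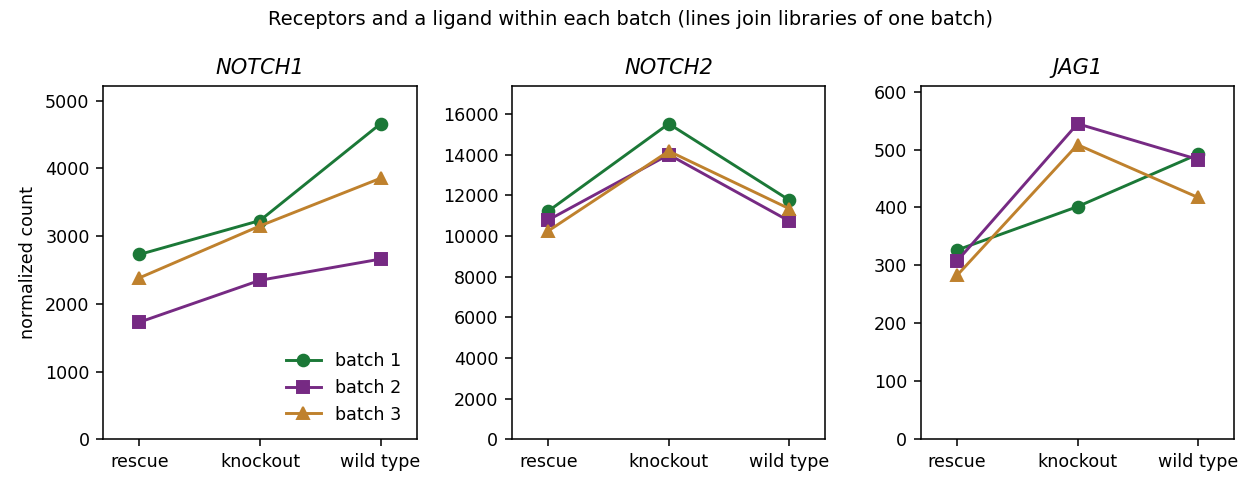
Normalized counts (vertical axes, starting at 0) of NOTCH1, NOTCH2 and JAG1 in the rescue, knockout and wild-type libraries, with a line joining the 3 libraries of each batch. For NOTCH1 each batch is lowest in the rescue (1729 to 2729) and highest in wild type (2661 to 4659), while for NOTCH2 each batch peaks in the knockout.

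The balance of the 2 abundant receptors also differed between wild type and the other groups. There were 4.11, 6.23 and 4.3 NOTCH2 counts for each NOTCH1 count in the rescue of batches 1, 2 and 3, 4.8, 5.96 and 4.5 in the knockout, and 2.52, 4.03 and 2.94 in wild type. Rescue and knockout overlapped, with the rescue higher in batch 2 and the knockout higher in batches 1 and 3. The ratio was lowest in wild type in each batch and highest in batch 2 in each group. It was computed after the receptor values had been seen and is given as a description. NOTCH4 (ENSG00000204301.6, chromosome 6, 32194843 to 32224067, minus strand), a receptor best known from blood vessels, was near the limit of detection. Its normalized counts were 7.02, 5.83 and 6.05 in the rescue, 1.75, 3.43 and 4.69 in the knockout and 4.06, 5.62 and 5.26 in wild type, or about 2 to 7 reads per library. A count of 0 allows up to 2.57 to 3.4 normalized counts, depending on the library, and NOTCH4, under 1 CPM in all 9 libraries, was not tested. GPSM3 shares 98 of the 9748 annotated exon bases of NOTCH4 on the same strand. Of the 31-base stretches of the principal NOTCH4 transcript, 1.09% also occur in transcripts of other genes. Whether the few reads came from NOTCH4 itself was not tested.

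RBPJ (ENSG00000168214.20, chromosome 4, 26163455 to 26435131, plus strand), the factor through which all Notch receptors reach DNA, differed little between the groups. Its normalized counts were 3598, 3676 and 3274 in the rescue, 2814, 3177 and 2720 in the knockout and 3530, 2974 and 3107 in wild type. The rescue lay above the knockout without overlap, by 1.21-fold (log2 difference 0.23, SE 0.0693, limma adjusted p = 0.0371). This call was lost without knockout replicate 1 (adjusted p = 0.115) or 3 (adjusted p = 0.13), without rescue replicate 1 (adjusted p = 0.101) or 2 (adjusted p = 0.12), and without batch 1 (adjusted p = 0.207) or 3 (adjusted p = 0.16). The other comparisons did not pass (limma adjusted p = 0.332 for knockout against wild type and 0.474 for rescue against wild type). RBPJ has processed pseudogenes, and 4.14% of the 31-base stretches of its principal transcript also occur in transcripts of other genes. Those genes include PAX5, which was likewise called higher in the rescue than in the knockout (limma adjusted p = 0.0231). Whether this sharing affects the RBPJ counts was not tested.

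DTX1 (ENSG00000135144.7, chromosome 12, 113056709 to 113098028, plus strand) encodes Deltex-1, a ubiquitin ligase that binds the intracellular part of Notch, and is itself a Notch target. Of the 8 genes tested, it had the widest log2 difference on the deposited scale in both comparisons with the knockout. Between rescue and wild type NOTCH1 had a wider one (-0.56, against 0.37 for DTX1). By the fold of mean counts, the low gene HES1 had a wider difference between knockout and wild type (3.19-fold). Between rescue and wild type the folds of NOTCH1 (1.63), JAG1 (1.52) and HES1 (1.35) were wider than that of DTX1. The normalized counts of DTX1 were 9984, 9141 and 10067 in the rescue, 3154, 2997 and 3437 in the knockout and 8057, 6226 and 7936 in wild type. No group overlapped another, and the groups stood in the same order as SOX11. DTX1 fell 2.32-fold in the knockout against wild type (log2 difference -1.05, SE 0.0855, limma adjusted p = 1.48e-05) and rose 3.04-fold in the rescue against the knockout (log2 difference 1.42, limma adjusted p = 1.25e-06). Both calls were kept under each of 20 other settings of the fit, and the knockout stood at 0.392, 0.481 and 0.433 times the wild-type count in batches 1, 2 and 3. The rescue was 1.31-fold above wild type (log2 difference 0.37, limma adjusted p = 0.036), where SOX11 stood at 369.8% of wild type. That last call was lost in 9 of the 20 alternatives, namely the fit of only the groups compared (adjusted p = 0.0735), log2(CPM + 1) (adjusted p = 0.0519), without batch 1 (adjusted p = 0.188) or 3 (adjusted p = 0.239), without rescue replicate 1, 2 or 3 (adjusted p = 0.113, 0.0626 and 0.145), without wild-type replicate 2 (adjusted p = 0.0528) and without knockout replicate 1 (adjusted p = 0.0585). DTX1 shares no exon base with another annotated gene and no 31-base stretch with another transcript.

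NRARP (ENSG00000198435.4, chromosome 9, 137300482 to 137302251, minus strand), a small ankyrin repeat protein that binds the Notch complex and limits it, had its lowest values in the knockout. Its normalized counts were 360.5, 297 and 289 in the rescue, 218, 212 and 231 in the knockout and 454, 276 and 279 in wild type. The knockout lay below both other groups without overlap, 1.53-fold below wild type (log2 difference -0.23, SE 0.0792, limma adjusted p = 0.0906) and 1.43-fold below the rescue (log2 difference 0.2 for rescue over knockout, limma adjusted p = 0.104), but neither difference passed. Without wild-type replicate 1, the highest library, the log2 difference between knockout and wild type was -0.12 (limma adjusted p = 0.233). With the replicate block both passed (limma adjusted p = 0.0299 and 0.0389), and the second also in the fit of only the groups compared (limma adjusted p = 0.0265) and without wild-type replicate 1 (limma adjusted p = 0.0231). The rescue and wild type overlapped (limma adjusted p = 0.905).

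HES1 (ENSG00000114315.4, chromosome 3, 194136145 to 194138732, plus strand), the repressor that is the best known Notch target, was a low gene with its highest values in the knockout, the opposite direction to DTX1 and NRARP. Its normalized counts were 22.8, 24.5 and 40.9 in the rescue, 39.3, 82.3 and 86.5 in the knockout and 11.9, 22.9 and 30.5 in wild type, from 13.9 to 78.2 estimated reads per library. The knockout lay above wild type without overlap and overlapped the rescue at 1 library. HES1 rose 3.19-fold in the knockout against wild type (log2 difference 0.26, SE 0.0659, limma adjusted p = 0.0234). It was 2.36-fold lower in the rescue than in the knockout (log2 difference -0.2, limma adjusted p = 0.0458). HES1 reached 1 CPM in the 3 knockout libraries and in 1 rescue library, so it passed the filter on low values through the group in which it was high, and its calls carry that selection. The first call was lost without wild-type replicate 1 (adjusted p = 0.0863), without knockout replicate 2 (adjusted p = 0.0799) or 3 (adjusted p = 0.0882) and without batch 2 (adjusted p = 0.127). The second was lost in 11 of its 18 alternatives, without a filter (adjusted p = 0.0511), with a constant prior variance (adjusted p = 0.0547), in the fit of only the groups compared (adjusted p = 0.0519), without wild-type replicate 2 (adjusted p = 0.0503) or 3 (adjusted p = 0.0505), without knockout replicate 2 (adjusted p = 0.136) or 3 (adjusted p = 0.154), without rescue replicate 1, 2 or 3 (adjusted p = 0.128, 0.126 and 0.0508) and without batch 2 (adjusted p = 0.251). In batches 1, 2 and 3 the knockout was 3.3-fold, 3.6-fold and 2.83-fold above wild type.

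HES6 (ENSG00000144485.11, chromosome 2, 238238267 to 238240662, minus strand) belongs to the same family but is known to counter HES1 and to act in neuronal and muscle differentiation. It was abundant, with 4377, 4270 and 4630 normalized counts in the rescue, 2941, 3580 and 3235 in the knockout and 3921, 3819 and 3011 in wild type. The rescue stood above all 6 other libraries, and knockout and wild type overlapped. HES6 was 1.36-fold higher in the rescue than in the knockout (log2 difference 0.38, SE 0.0852, limma adjusted p = 0.00882), a call lost without batch 1 (adjusted p = 0.0901) or 3 (adjusted p = 0.0504). Rescue against wild type (1.23-fold, limma adjusted p = 0.132) and knockout against wild type (limma adjusted p = 0.449) did not pass.

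**Figure D3:**
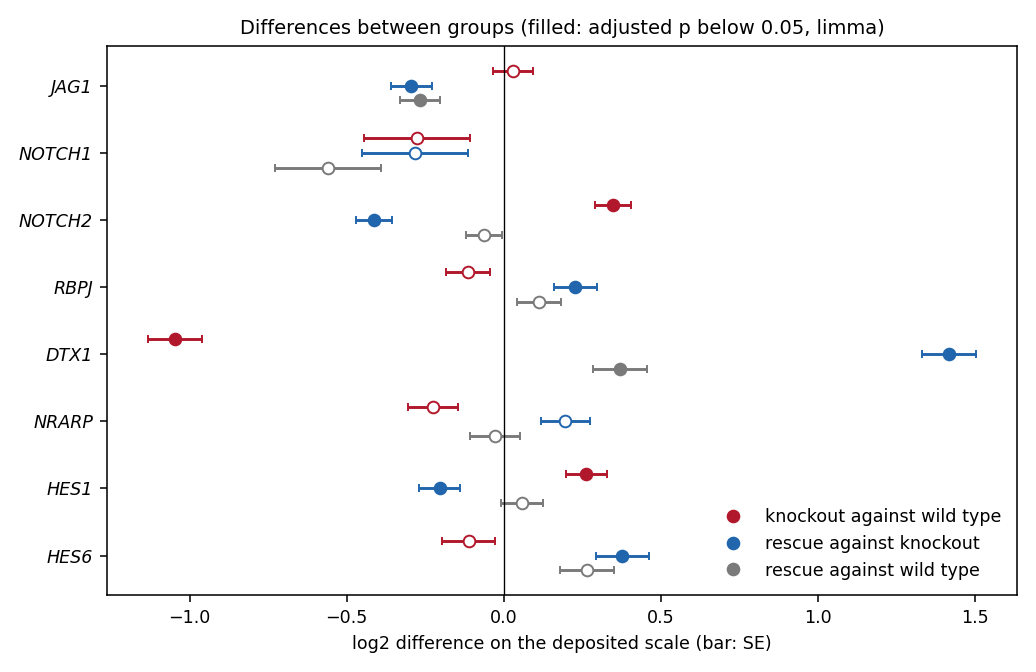
Log2 difference on the deposited scale (horizontal axis, bars for SE) of the 8 Notch genes tested, in 3 comparisons, with filled points for limma adjusted p below 0.05. DTX1 has the widest differences, -1.05 for knockout over wild type and 1.42 for rescue over knockout, and NOTCH2 and HES1 point the other way.

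Promoter windows from RefSeq (build GRCh38.p14, 250 bases before to 50 after the start) matched 8 of the 9 genes, all but DTX1. They were searched on both strands for TGGGAA, the core of the RBPJ site, AACAAT, a core of SOX sites, and ATGCAAAT, the octamer that POU factors bind. The octamer was added after the NRARP window had been read. The windows of HES1, NRARP and HES6 are shown because they hold these letters in front of genes whose levels are given above. Capitals mark the matches, read on the strand of the gene.
HES1, chr3:194135898-194136197, plus strand: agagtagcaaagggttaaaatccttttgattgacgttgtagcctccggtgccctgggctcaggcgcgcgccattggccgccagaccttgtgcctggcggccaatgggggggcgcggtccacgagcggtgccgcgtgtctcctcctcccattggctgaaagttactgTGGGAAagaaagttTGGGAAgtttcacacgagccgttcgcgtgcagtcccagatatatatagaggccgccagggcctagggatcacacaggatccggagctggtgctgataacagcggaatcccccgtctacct
NRARP, chr9:137302222-137302521, minus strand: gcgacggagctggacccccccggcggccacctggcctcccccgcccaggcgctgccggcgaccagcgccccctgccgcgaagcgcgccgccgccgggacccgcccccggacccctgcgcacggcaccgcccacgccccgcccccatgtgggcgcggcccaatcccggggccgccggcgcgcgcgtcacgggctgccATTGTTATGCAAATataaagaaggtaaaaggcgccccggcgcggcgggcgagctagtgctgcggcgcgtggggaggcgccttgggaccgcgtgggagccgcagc
HES6, chr2:238239989-238240288, minus strand: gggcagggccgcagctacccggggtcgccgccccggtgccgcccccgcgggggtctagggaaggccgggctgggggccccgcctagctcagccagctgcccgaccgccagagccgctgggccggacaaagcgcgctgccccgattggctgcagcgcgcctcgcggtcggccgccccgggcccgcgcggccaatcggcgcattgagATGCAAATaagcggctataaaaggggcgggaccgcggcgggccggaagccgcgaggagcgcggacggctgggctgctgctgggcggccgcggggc
HES1 holds 2 copies of TGGGAA on its own strand, beginning 84 and 70 bases before the start, in the window of a gene that was highest in the knockout. Of all 35116 windows, 24% hold this core at least once and 3.8% at least 2 times. The NRARP window has no RBPJ core. It has AACAAT on the opposite strand, beginning 54 bases before the start and read as ATTGTT, directly followed by the octamer, which begins 48 bases before the start, and the matches do not overlap. Of all windows 10.1% hold AACAAT, 1.77% the octamer and 0.316% both. HES6 has an octamer beginning 45 bases before its start and neither of the other cores. No other window of a Notch gene held AACAAT or the octamer, and TGGGAA was otherwise found only in 1 of the 5 RBPJ windows, at 2 places. DTX1 had no window, so its promoter was not searched. Only these exact letters were searched, so other forms of the sites, SOX sites among them, would be missed in any window. Such matches describe these windows and do not show binding.

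Counted over the genes tested, 3 of 8 Notch genes were called in the knockout against wild type, NOTCH2 and HES1 higher and DTX1 lower, where 12.7% of all 11542 genes tested were called, 5.36% higher and 7.37% lower. The groups did not overlap for 4 of 8, beside 29.5% of all genes. In the rescue against the knockout 6 of 8 were called, DTX1, HES6 and RBPJ higher and NOTCH2, HES1 and JAG1 lower, where 22.1% of all genes were, 11.5% higher and 10.7% lower. Here 6 of 8 did not overlap, beside 41.8% of all genes. In the rescue against wild type 2 of 8 were called, DTX1 higher and JAG1 lower, where 4.07% of all genes were, 2.3% higher and 1.78% lower. Here 3 of 8 did not overlap, beside 20.8% of all genes. The median log2 difference of the 8 genes was -0.11 for knockout over wild type, -0.0044 for rescue over knockout and 0.014 for rescue over wild type, beside 0.0048, -0.0065 and -3.2e-05 for all genes. The genes were chosen with earlier results of these data known and include HES1, which passed the filter through the knockout, so nothing is read from these shares. The comparisons share libraries, and the knockout libraries enter 2 of them. These calls come from the fit without a batch term, which leaves out the pairing of libraries by batch. With the replicate block NOTCH1 also passed in every comparison, and NRARP in both comparisons with the knockout. More of all genes were then called too, in the knockout and in the rescue against wild type.

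The rest of the pathway was described through 74 other genes listed by role, of which 69 had a row and 61 were tested. In the knockout against wild type 3 rose and 4 fell, in the rescue against the knockout 7 rose and 9 fell, and in the rescue against wild type 3 rose and 4 fell. That is 7, 16 and 7 of the 61 genes tested (11.5%, 26.2% and 11.5%), beside 12.7%, 22.1% and 4.07% of all genes. The lists were chosen with earlier results of these data known. They include DTX3, NOTCH3, MAML2, MAML3 and IL7R, which passed the filter through a group in which they were high. Nothing is therefore read from these shares. In all, 18 of these genes were called at least once.

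Among the ligands and receptors, JAG2 (Jagged-2) had 95.2 ± 29.5 normalized counts in the rescue, 321 ± 17.4 in the knockout and 185 ± 74.6 in wild type. It was 3.37-fold lower in the rescue than in the knockout (limma adjusted p = 0.00073), a call kept in the 20 alternatives. It rose 1.73-fold in the knockout against wild type (limma adjusted p = 0.0388), which was lost in 10 of 20 alternatives, with adjusted p up to 0.268, including the removal of any knockout replicate, wild-type replicate 2 or 3, or rescue replicate 1. DLL3, a ligand that acts mainly inside the cell, went the other way, with 485 ± 58.5 in the rescue, 303 ± 48.6 in the knockout and 429 ± 51.7 in wild type (rescue against knockout, limma adjusted p = 0.00892). NOTCH3 was low, at 49.9, 60 and 57.4 in the rescue, 0.749, 23.2 and 14.3 in the knockout and 32.4, 23.3 and 46.1 in wild type, and passed in the rescue against the knockout (limma adjusted p = 0.00758). NOTCH3 reached 1 CPM in the 3 rescue libraries and 1 wild-type library, so it passed the filter through the group in which it was high. The calls of DLL3 and NOTCH3 were lost without batch 1, and that of DLL3 without batch 3.

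None of the listed genes that modify or cut the receptor was called in any comparison. These were 5 glycosylation genes (LFNG, MFNG, RFNG, POFUT1 and POGLUT1) and 8 protease genes (FURIN, ADAM10, ADAM17, PSEN2, NCSTN, APH1A, APH1B and PSENEN). At an unadjusted limma p below 0.05 there were 0, 2 and 1 glycosylation genes and 1, 0 and 0 protease genes in the knockout against wild type, the rescue against the knockout and the rescue against wild type. Of all 11542 genes tested, 3067, 3956 and 1871 had such a p in the same comparisons. The lowest limma adjusted p among them was 0.0942, for RFNG in the rescue against the knockout. The median log2 difference of the protease genes was -0.05 for knockout over wild type and 0.09 for rescue over knockout, beside 0.0048 and -0.0065 for all genes.

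Among ubiquitin ligases, DTX3, a relative of DTX1, fell to 6.21 ± 2.43 normalized counts in the knockout, against 104 ± 7.69 in wild type, a 16.7-fold difference (limma adjusted p = 1.53e-05). The rescue held 18 ± 7.17, still 5.75-fold below wild type (limma adjusted p = 0.000286), and rescue and knockout were not shown to differ (limma adjusted p = 0.0739). DTX3 was tested in 13 alternatives, all of which kept both calls, and it passed the filter through the wild-type group. In 7 others, which include the removal of any wild-type library or any batch, it fell under the filter. The 13 alternatives therefore do not test how far these calls rest on single wild-type libraries. MIB2, a mind bomb ligase that acts on Notch ligands, stood at 535 ± 48 in the rescue, 727 ± 26.7 in the knockout and 979 ± 42.3 in wild type. It was 1.83-fold lower in the rescue than in wild type (limma adjusted p = 0.000343, kept in 20 alternatives), and was also called in the other comparisons (limma adjusted p = 0.00904 for knockout against wild type and 0.00867 for rescue against knockout), both lost without batch 1 or 3. MIB2 thus shared with NOTCH1 the order rescue, knockout, wild type from low to high.

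Of the corepressors that keep RBPJ targets silent, 15 were tested. CTBP2 had 1313 ± 55.6 in the rescue, 718 ± 149 in the knockout and 1659 ± 184 in wild type. It fell 2.31-fold in the knockout against wild type (limma adjusted p = 0.00012) and rose 1.83-fold in the rescue against the knockout (limma adjusted p = 0.000977). HDAC2, a histone deacetylase, was also lowest in the knockout, but highest in the rescue, at 11028 ± 826 in the rescue, 8173 ± 395 in the knockout and 10259 ± 789 in wild type. It was called lower in knockout than in wild type (limma adjusted p = 0.0129) and higher in rescue than in knockout (limma adjusted p = 0.00156). TLE1, a Groucho corepressor that HES proteins recruit, moved the other way, with 520 ± 126 in the rescue, 876 ± 177 in the knockout and 353 ± 47.3 in wild type. It rose 2.48-fold in the knockout against wild type (limma adjusted p = 0.00139), and was lower in the rescue than in the knockout (limma adjusted p = 0.015). The CTBP2 calls, the knockout rise of TLE1 and the HDAC2 difference between rescue and knockout were kept in 20 alternatives. The HDAC2 fall was lost in 5, with adjusted p up to 0.0723, on the removal of wild-type replicate 1, knockout replicate 2 or any batch. The TLE1 difference between rescue and knockout was also lost in 5, with adjusted p up to 0.121, on the removal of knockout replicate 1 or 3, rescue replicate 2, or batch 1 or 3.

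Among the coactivators, MAML2, of the mastermind-like family, had 65 ± 14.3 in the rescue, 22.2 ± 3.75 in the knockout and 30.2 ± 1.89 in wild type (limma adjusted p = 0.00295 against the knockout, kept in its 13 alternatives). It passed the filter through the rescue group. In 7 other alternatives, which include the removal of any rescue library or any batch, MAML2 fell under the filter. The 13 alternatives therefore do not test how far its calls rest on single rescue libraries. Both MAML2 and its relative MAML3 were called higher in the rescue than in wild type (limma adjusted p = 0.0453 and 0.0433), but most alternatives lost these calls, 9 of 13 for MAML2 and 11 of 18 for MAML3, with the removal of any wild-type library among them. MAML3 had 50.1 ± 6.88 in the rescue, 42 ± 28.2 in the knockout and 10.9 ± 4.82 in wild type. Its knockout libraries also lay above wild type without overlap, but this did not pass (limma adjusted p = 0.0542). Rescue and knockout overlapped for MAML3 (limma adjusted p = 0.587). MAML3 too passed the filter through the rescue, with 1 CPM reached in its 3 libraries and in 1 knockout library. Of the genes listed with the coactivators, CCNC (limma adjusted p = 0.00924) and KAT2A (limma adjusted p = 0.0478) were also called, lower in the rescue than in the knockout. The other corepressors called were L3MBTL3, higher in the rescue than in the knockout (limma adjusted p = 0.0323), and HDAC1, lower in the rescue than in the knockout (limma adjusted p = 0.0158). Of 20 alternatives, 2 lost the CCNC call (without batch 1 or 3, adjusted p up to 0.0921). The HDAC1 call was lost in 6, without knockout replicate 2, rescue replicate 2 or 3, or any batch (adjusted p up to 0.13). The L3MBTL3 call was lost in 7, without knockout replicate 1 or 2, any rescue replicate, or batch 1 or 3 (adjusted p up to 0.174). The KAT2A call was lost in 10, with no filter, on log2(CPM + 1), and on removal of rescue replicate 2 or 3, knockout replicate 1 or 3, wild-type replicate 1 or 3, or batch 1 or 3 (adjusted p up to 0.383). Of the genes that respond to Notch in lymphocytes, FCER2, which encodes the low-affinity IgE receptor CD23, had 382 ± 39.7 in the rescue, 884 ± 21.7 in the knockout and 544 ± 107 in wild type. FCER2 rose 1.63-fold in the knockout against wild type (limma adjusted p = 0.00404, lost without batch 1 or 3) and was 2.31-fold lower in the rescue than in the knockout (limma adjusted p = 0.000106, kept in 20 alternatives). HEY2, a relative of the HES repressors, stood at 1040 ± 111 in the rescue, 1749 ± 136 in the knockout and 1507 ± 227 in wild type, and MYC at 27640 ± 1957, 39721 ± 1806 and 35514 ± 1230 in the same groups. Both were lower in the rescue than in the knockout, with limma adjusted p = 0.000984 for HEY2 and 0.000135 for MYC, each kept in 20 alternatives. They were also called lower in the rescue than in wild type, at limma adjusted p = 0.033 for HEY2, which was lost in 9 of 20 alternatives, and 0.00699 for MYC, which was lost without any 1 of the batches. The HEY2 losses included the removal of wild-type replicate 1 or 3, knockout replicate 3 and rescue replicate 2 or 3, with adjusted p up to 0.283. The whole list of Notch-responsive genes had 10 genes tested, which include HES1, DTX1 and NRARP from above. For knockout over wild type 2 were called higher and 1 lower, where 5.36% and 7.37% of all genes were. For rescue over knockout 3 were called higher and 3 lower, where 11.5% and 10.7% of all genes were. For rescue over wild type 2 were called higher and 1 lower, where 2.3% and 1.78% of all genes were. The list was chosen with earlier results known, and HES1, NOTCH3 and IL7R passed the filter through the group in which they were high. Nothing is read from these shares either.

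**Figure D4:**
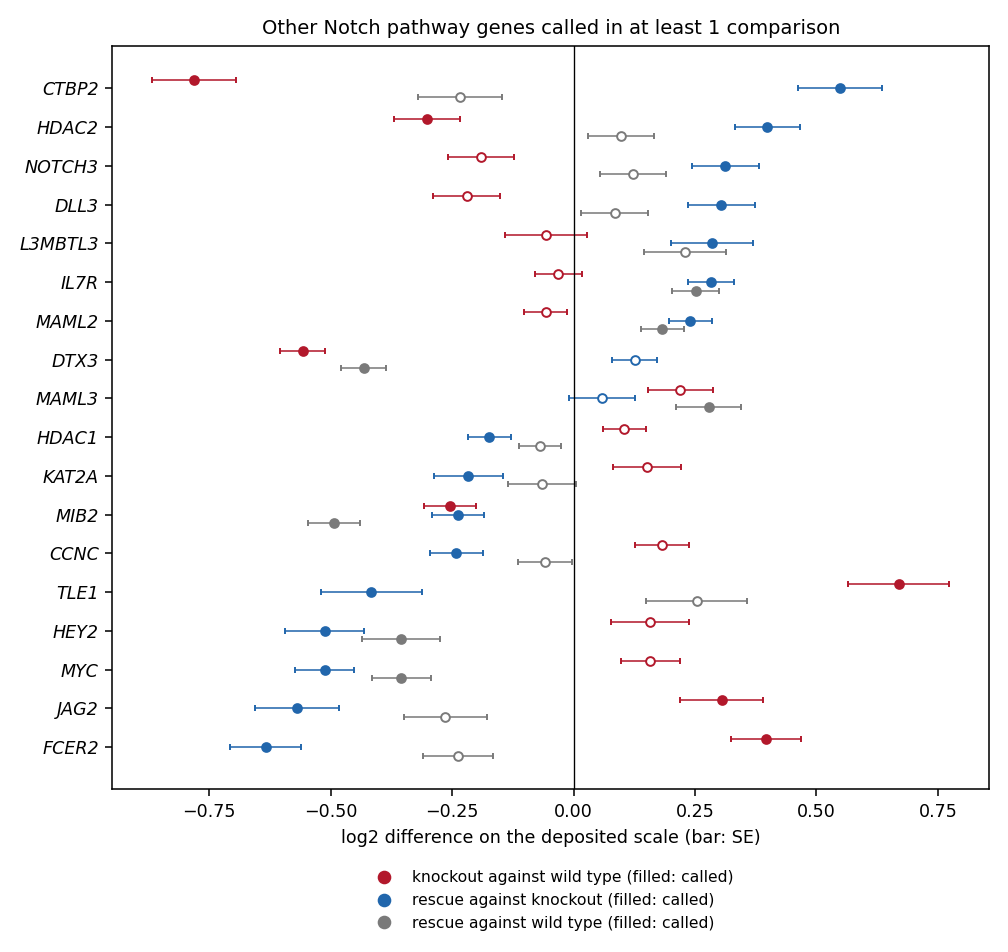
Log2 difference on the deposited scale (horizontal axis, bars for SE) of the 18 other Notch pathway genes called in at least 1 comparison, sorted by the difference between rescue and knockout, with filled points for limma adjusted p below 0.05. CTBP2 and HDAC2 lie below 0 for knockout over wild type and above 0 for rescue over knockout, and FCER2, JAG2 and TLE1 lie the other way round.

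Of the Notch genes tested, DTX1, NOTCH1 and NOTCH2 had the group means farthest apart on the deposited log2 scale. By fold of mean counts the order is another. HES1 (up to 3.19-fold) then stands above DTX1 (up to 3.04-fold), and JAG1, NRARP and HES6 also stand above NOTCH2. For DTX1, NOTCH1 and NOTCH2, the genes with the most similar values over the 9 libraries were looked up by Pearson correlation of the deposited log2 values. These values are a description over libraries that share their groups and batches. For DTX1 they were GOLGA2P7 (r = 0.9958), CSNK1E (r = 0.9948), MLLT11 (r = 0.9943) and ASAP2 (r = 0.9938). For NOTCH1 they were DLEU7 (r = 0.9719), CLMN (r = 0.9629), PDE4A (r = 0.9538) and MAST3 (r = 0.9503), each with its highest mean in wild type and its lowest in the rescue. For NOTCH2 they were ADIPOR1 (r = 0.9935), IARS2 (r = 0.9882), RECQL (r = 0.9861) and SHANK1 (r = 0.9793), each with its highest mean in the knockout.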

How the data were processed

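The deposited table holds 1 log2 value per gene and library, made by the authors. The submitters' processing notes name the build GRCh38.p13 and the tools kallisto 0.46.1, DESeq2 1.24.0, Trimmomatic 0.40, FastQC 0.11.9 and R 4.3.2, without their roles. Per the labels' protocols, libraries were made with either a TruSeq RNA kit or a stranded total RNA kit after ribosomal depletion, not assigned to libraries. The deposited log2 values share the lowest value 8.5985 and behave as variance-stabilized values. Normalized counts were recovered as (y - c) squared over y, with y as 2 to the value and c = 388, and CPM from their shares. Among genes with a single annotated transcript, 82.5% to 98.4% of low counts fell within 0.05 of a step of whole multiples of 1 read, which gave the depth estimate.

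Genes with at least 1 CPM in at least 3 libraries were tested, 11542 of 16586. Group means over the 9 libraries were estimated together by limma 3.58.1 (R 4.3.3), its prior variance following the expression trend, with Benjamini-Hochberg adjustment over all genes tested and a threshold of 0.05. Fold changes are ratios of mean normalized counts; log2 differences are on the deposited scale, which understates the change of low genes. The fit was tried on simulated counts with the same spread setting for all genes and no batch effect, for knockout against wild type only. That trial does not cover libraries paired by batch, as these are. Batch and replicate number coincide and are crossed with the groups, so they pair the libraries: deviations of same-batch libraries correlated at 0.187 to 0.51, and 9 of 9 libraries correlated best with their own batch. The main fit held no batch term, and the pairing enters only through the replicate block. Alternatives were the replicate block, quantile normalization, median centring, the log2(CPM + 1) scale, a filter of 4 CPM or none, a prior variance without trend, fits of the compared groups alone, and removal of each library or batch. The Notch genes, the lists and the tests were chosen with earlier results of these data known. The genes named were the Notch genes, then the other listed genes called at least once, by size of difference. Positions, lengths and exon overlaps are from GENCODE 29 (GRCh38). Floors of 3 reads cover counting error only. Figures were drawn with matplotlib 3.10.9. 2 further genes of the lists are not reported here.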

Additional observations from a re-analysis of the deposited data

How the results depend on the processing

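No result on a Notch gene changed sign with a call in any alternative. Of 474 alternative values for the 24 Notch results, 53 changed the side of the threshold: 43 lost the call and 10 gained it. The losses were calls of HES1, RBPJ, HES6 and JAG1 and the DTX1 call between rescue and wild type. The gains were of NOTCH1 and NRARP, and apart from these the replicate block changed no call of a Notch gene. Over all genes, the replicate block moved the called genes to 2481 of 11542 for knockout over wild type (1470 without it) and to 930 in the rescue against wild type (470 without it). Leaving out batch 1 or batch 3 gave 538 and 546 genes for knockout over wild type, 1127 and 955 in the rescue against the knockout (2556 with all batches), and 103 and 74 in the rescue against wild type, which had 200 without batch 2. Leaving out 1 library gave 931 to 1378, 1712 to 2962 and 210 to 427 genes in the same order of comparisons. Fewer libraries enter those fits. HES1 had no value under the stricter filter or without batch 3. NOTCH4 stayed under the filter; its counts of about 2 to 7 reads limit it at this depth.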

Other observations

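Several pathway genes were too low for the test and are given as values. HES7, a clock gene of the embryo, had 12.5 normalized counts in the rescue, 6.16 in the knockout and 13.1 in wild type on average. NEURL1, a ligase of the neuralized family, had 27.9, 14.4 and 9.1 in the rescue libraries of batches 1, 2 and 3, 2.6, 3.12 and 12.1 in the knockout and 22.1, 26.6 and 3.42 in wild type, so that batch 3 had the opposite order of knockout and wild type. CR2, the complement receptor that marks marginal zone B cells, had 5.3 in the rescue, 9.16 in the knockout and 4.94 in wild type. HEY1 stayed between 0.633 and 1.35 on average in every group, below the 3-read floor. IL7R, which Notch controls in T cell precursors, was tested and stood at 47.9 ± 12.7 in the rescue, 8.95 ± 0.773 in the knockout and 12.2 ± 6.58 in wild type (SD, n = 3 each). It was called higher in the rescue than in the knockout (limma adjusted p = 0.00164) and than in wild type (limma adjusted p = 0.0135), the second lost without wild-type replicate 1 or 2 (adjusted p up to 0.0545), and it passed the filter through the rescue group.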
